A study of Mus musculus with 18 samples.

Results

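Mouse fibroblasts that lack their own RelA and carry a RelA mutated in its second transactivation domain, RelA(TA2), were compared 2 h after tumour necrosis factor alpha (TNF) and before it, in 4 of the 18 libraries of the series. The cells were immortalised embryonic fibroblasts of rela-/- mice, reconstituted with a retroviral vector, so that the introduced RelA was the only RelA and was not under its own promoter. The sources used here do not say whether a line was a clone or a pool. RelA(TA2) carried L449A and F473A together, RelA(Ser276Ala) carried S276A, and RelA(wt) carried no change. Each line was left untreated (0 h) or given TNF at 5 ng/ml for 1 or 2 h, with 2 libraries in each of the 9 groups, stated to be independent replicates. The 4 RelA(TA2) libraries were the 2 untreated ones and the 2 taken at 2 h. They were chosen by their labels, and the expression of a gene was the sum of FPKM (fragments scaled to transcript length and library size) over those assembled transcripts that matched RefSeq transcripts. Of the genes so measured, 12244 reached 1 FPKM in at least 2 of the 18 libraries and were tested.

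NF-kB is a family of dimeric transcription factors that inhibitor proteins hold in the cytoplasm of resting cells. TNF binding to its receptor triggers the breakdown of these inhibitors, and RelA, usually paired with p50, enters the nucleus and binds genes for inflammatory mediators and for its own inhibitors. RelA acts with the related coactivators CBP and p300, whose TAZ1 domain its second transactivation domain contacts. Resynthesis of the inhibitor IkBalpha ends the first wave of the response, and fibroblasts are a known source of chemokines and colony stimulating factors after TNF.

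Both replaced residues lie in the last coding exon of Rela, exon 11 of 11, and the serine replaced in RelA(Ser276Ala) lies in exon 8. The unmutated codons are shown to place the changes, with 15 reference bases on each side and the codon in capitals. They were read from the GENCODE transcript on the plus strand of chromosome 19 in GRCm38 and are not sequences read from the cells.
L449A, chr19:5647096-5647128: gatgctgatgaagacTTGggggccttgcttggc
F473A, chr19:5647168-5647200: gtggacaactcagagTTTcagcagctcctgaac
S276A, chr19:5641610-5641642: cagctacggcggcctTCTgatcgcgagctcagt

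Rela itself, the gene reintroduced into these cells, was at 344 and 315 FPKM in the untreated RelA(TA2) libraries and at 327 and 323 FPKM at 2 h. Its change was -0.02 ± 0.10 on the log2 scale (SE, n = 2 per group, adjusted p = 0.99). The level was higher in this line than in the others, where Rela stood at 165 and 176 FPKM in untreated RelA(wt) cells and at 186 and 174 FPKM in untreated RelA(Ser276Ala) cells. These are mRNA levels. For the protein, the paper reports that the S276A form was scarcer than both other forms. The mRNA gap lies beside every comparison between lines below, and the protein gap beside those with RelA(Ser276Ala). The part of either in them was not tested. Gene-level FPKM cannot show the introduced substitutions.

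The 18 libraries held 25.3 M to 31.3 M mapped fragments each, and the 4 compared here held 27.8 M to 28.6 M and listed 11476 to 11507 genes above 0. Fragments in genes made up 95.7% of the total in the untreated library 1 and 98.0 to 98.3% in the other 3. Summed FPKM of fibroblast and matrix markers was 6256 to 6614 in the 4 libraries, with 20 of 22 markers above 0 in all of them. Several defining markers of other cell types were listed at 0 in all 4, among them Ptprc and Emr1 of macrophages, Pecam1 and Tek of endothelium, Epcam and Cdh1 of epithelium, Myod1 of muscle, Adipoq of fat and Gfap of glia, while others were detected. Above 0 in all 4 libraries were 4 of 8 macrophage markers, 1 of 6 endothelial (Cdh5), 2 of 6 epithelial (Krt8 and Krt19), 2 of 6 muscle, 2 of 6 fat and 2 of 5 neural and glial markers. Cdh5, the endothelial cadherin gene, was at 3.85 and 4.41 FPKM before TNF and 10.2 and 8.81 FPKM after (adjusted p = 0.54 by limma, and 0.017 with recovered fragments, a second measure described below). The summed levels, at 0 h and then at 2 h, were 4.71 and 6.55, then 10.2 and 9.87 FPKM for 6 endothelial markers, 42.5 and 54.6, then 57.3 and 63.3 FPKM for 6 epithelial markers, and 16.6 and 17.1, then 22.7 and 17.3 FPKM for 8 macrophage markers. They were 5.23 and 5.92, then 8.37 and 5.72 FPKM for muscle, 33.5 and 33.0, then 37.7 and 35.9 FPKM for fat, and 11.9 and 17.0, then 17.5 and 21.5 FPKM for neural and glial markers. All but the muscle sum were higher in both treated libraries than in both untreated ones, and their part in the results was not tested. Of the markers of other cell types 1 passed the test described below by FPKM, the neuronal tubulin gene Tubb3, at 7.46 and 10.2 FPKM before TNF and 13.1 and 15.5 FPKM after (0.68 ± 0.16). Fewer cells of a type and less RNA per cell cannot be told apart in such libraries.

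After 2 h of TNF, 446 of the 12244 genes differed from the untreated cells, 3.64% of those tested, by limma on log2(FPKM + 0.5) with Benjamini-Hochberg adjustment at 0.05. Of these, 215 genes rose (1.76%) and 231 fell (1.89%), so that falls made up 51.8% of the calls. The rises were larger than the falls. Of the genes that rose, 118 reached 2-fold and the median change was 1.09, whereas 62 of those that fell reached 2-fold and their median was -0.63. At an unadjusted p under 0.05, 803 genes were higher (6.56%) and 1315 lower (10.7%), which is the background for the unadjusted counts given for gene groups below. The median over all genes tested was -0.053. Fold changes are on the log2(FPKM + 0.5) scale, which understates the change of low genes. The SE and p-values rest on a spread between replicate libraries that was shared over all 9 groups of the series. They do not measure the spread of the 4 compared libraries alone. With only RelA(TA2) libraries in the fit, 83 genes rose and 41 fell.

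The count of falls depended on the measure and the scaling. Falls were 37.2% of the calls with median-of-ratios scaling (257 higher and 152 lower) and 42.9% with quantile normalisation (218 and 164). A second measure was an estimated number of fragments, the FPKM of each assembled transcript times a factor for its assembled length. The factor was set from the confidence limits of genes with a single assembled transcript. This measure is therefore a rescaled FPKM and not an independent count. It called 1101 genes higher (9.09% of the 12111 tested) and 2325 lower (19.2%), with falls at 67.9% of the calls, and falls at 49.3% under median-of-ratios scaling. The fragment measure had a median SD between replicates of 0.105 on the log2 scale, against 0.309 for FPKM. It shared 198 of the 215 rises and 211 of the 231 falls, and gave the opposite sign for 5 and 6 of them. Single libraries moved the count of falls too. It was 535 without the untreated library 1, 181 without the untreated library 2, and 120 and 98 without the treated libraries 1 and 2, while the count of rises was 317, 152, 208 and 197 in the same order.

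**Figure D1:**
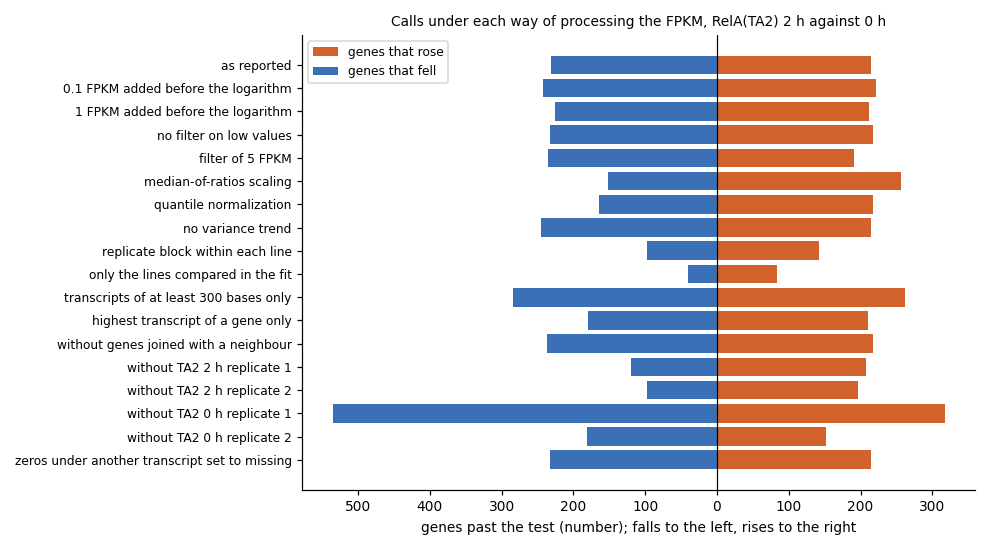
Numbers of genes called higher (to the right) and lower (to the left) at 2 h in RelA(TA2) cells. There is 1 row of bars for each way of processing the FPKM of the same libraries. The numbers of higher and lower genes were 215 and 231 as reported. Settings with recovered fragments, which gave 1101 and 2325, are not drawn.

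Chemokines and cytokines were the group with the most rises by FPKM, whereas by recovered fragments immediate early genes had more. Of 23 members tested, 10 rose and 0 fell by limma, and the median change of the list was 1.03 against -0.053 for all genes. At an unadjusted p under 0.05, 11 members were higher and 1 lower, and recovered fragments called 11 higher and 2 lower. Ccl2, a monocyte attractant (chr11:82035577-82037452 in mm10), went from 201 and 215 FPKM to 1503 and 1717 FPKM, a change of 2.95 ± 0.20 on the log2 scale (SE, n = 2, adjusted p = 2.2e-05) or 7.72-fold. Lif, a cytokine that signals through gp130, went from 4.90 and 4.56 FPKM to 30.6 and 36.6 FPKM, a change of 2.70 ± 0.16 (adjusted p = 5.7e-06). Csf1, the growth factor of macrophages, went from 34.3 and 39.2 FPKM to 137 and 150.2 FPKM, a change of 1.95 ± 0.11 (adjusted p = 4.8e-06). In all 3 genes both treated libraries stood above both untreated ones, as they did for every one of the 215 genes that rose. Untreated and treated libraries did not overlap, in either direction, for 5768 of the genes tested (47.1%).

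Some chemokine genes were listed at 0 before TNF and above 0 after it. The neutrophil attractant Cxcl1 was listed at 0 in both untreated libraries, stood at 43.6 and 51.7 FPKM at 1 h, and at 16.9 and 24.8 FPKM at 2 h (adjusted p = 9.2e-07). Ccl20, the ligand of CCR6, was likewise listed at 0 and then stood at 8.18 and 7.55 FPKM (adjusted p = 1.4e-06). The first was higher at 1 h than at 2 h, the second was at 7.07 and 6.58 FPKM at 1 h. Ccl7, Clcf1, Cxcl10, Il6 and Tnfsf11 were the other members that rose. Of these, Cxcl10, Il6 and Tnfsf11 were also listed at 0 in both untreated libraries. At 2 h Cxcl10 was at 3.30 and 3.93 FPKM, Il6 at 4.92 and 2.21 FPKM and Tnfsf11 at 2.45 and 1.31 FPKM. Csf2, Cxcl2 and Tnf, all familiar TNF targets, were listed at 0 in all 4 libraries, and Csf2 and Cxcl2 were above 0 in 1 of the 1 h libraries each, at 1.24 and 1.70 FPKM. Tnfsf9, the ligand of 4-1BB, did not pass the test, at 14.4 and 17.3 FPKM before and 10.3 and 12.6 FPKM after (-0.45 ± 0.14, adjusted p = 0.12).

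The inhibitors of NF-kB and the ubiquitin regulators beside them formed the other group that TNF is known for. Of 15 tested, 4 rose (Nfkbia, Tnfaip3, Tnip1 and Trib1) and 0 fell by limma, with a median of 1.11. At an unadjusted p under 0.05 it was 10 higher and 0 lower, and recovered fragments called 10 higher and 2 lower. The 4 rises became 2 without either untreated library or without the treated library 2. Nfkbia, which encodes IkBalpha (chr12:55488496-55492725), went from 14.3 and 17.1 FPKM to 193 and 190.5 FPKM at 1 h and was at 75.4 and 87.5 FPKM at 2 h, a change of 2.34 ± 0.32 from 0 h to 2 h (SE, n = 2, adjusted p = 0.0032). Tnfaip3, which encodes the ubiquitin-editing enzyme A20, went from 5.94 and 6.77 FPKM to 167 and 158 FPKM at 1 h and was at 26.2 and 31.2 FPKM at 2 h (2.09 ± 0.25, adjusted p = 0.0014). At 2 h both genes stood between their untreated and their 1 h levels. The 1 h values share the untreated libraries with the 2 h comparison and are given beside it only.

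Of 5 NF-kB subunit genes tested, 2 rose by FPKM, and both were higher at 2 h than at 1 h. Recovered fragments called 4 higher and 0 lower, with changes of 2.11 for Relb and 1.94 for Nfkb1. Relb, the RelA relative that pairs with p52, was at 6.83 and 7.57 FPKM, then 12.5 and 14.6 FPKM at 1 h and 30.7 and 31.1 FPKM at 2 h (2.03 ± 0.36, adjusted p = 0.012). Nfkb1, which encodes the p50 precursor, was at 15.7 and 13.1 FPKM, then 15.8 and 14.2 FPKM at 1 h and 57.0 and 51.5 FPKM at 2 h (1.88 ± 0.32, adjusted p = 0.01). Without the treated library 1 neither passed the test, and without the untreated or the treated library 2 only 1 did.

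**Figure D2:**
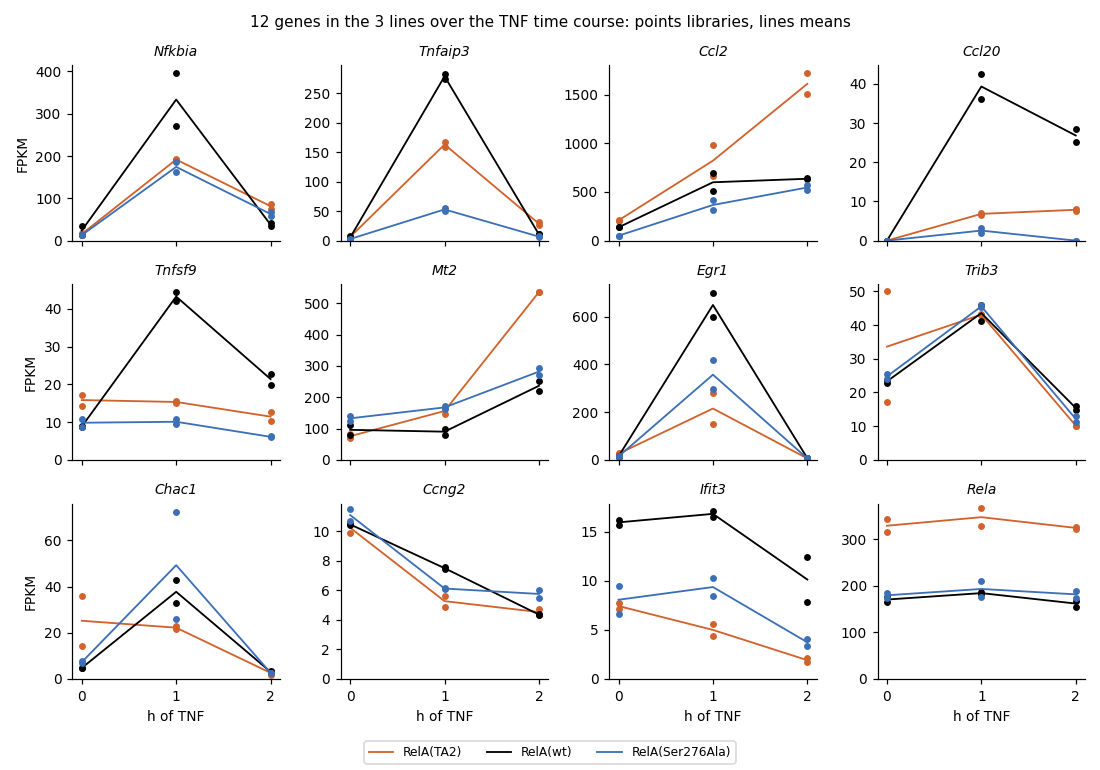
FPKM (vertical axes, each from 0) of 12 genes at 0, 1 and 2 h of TNF (horizontal axes) in RelA(TA2), RelA(wt) and RelA(Ser276Ala) cells, with 1 point per library and a line through the means. In RelA(TA2) cells Nfkbia and Tnfaip3 are highest at 1 h, at 193 and 190.5 FPKM and at 167 and 158 FPKM, whereas Mt2 is highest at 2 h, at 537 and 535 FPKM.

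Promoter windows of 250 bases before to 50 bases after the RefSeq start (GRCm38.p6) were searched on both strands for the NF-kB consensus site, since these groups are its known targets. A window was at hand for 9626 of the 12244 genes. A match stood in 994 of these (10.3%), in 26 of the 159 genes that rose and had a window (16.4%) and in 26 of the 192 that fell (13.5%). It stood in 7 of the 11 inhibitor genes with a window and in 7 of 15 chemokine and cytokine genes. The matches of 4 genes that rose are shown with the bases beside them and the match in capitals, each read along its gene's strand. For Cxcl1 the capitals mark 2 overlapping matches, 1 on each strand. The Nfkbia interval given above begins upstream of the RefSeq start used for its window, so its stretch lies inside that interval. A match is a run of letters and not evidence of binding.
Nfkbia, chr12:55492657-55492686 (minus strand): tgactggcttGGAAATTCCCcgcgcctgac
Cxcl1, chr5:90891165-90891194 (plus strand): ctgtactccGGGAATTTCCCtggcccggag
Ccl20, chr1:83116676-83116705 (plus strand): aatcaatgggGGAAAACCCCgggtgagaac
Csf1, chr3:107760604-107760633 (minus strand): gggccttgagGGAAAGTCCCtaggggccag

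Genes of cell adhesion and of matrix breakdown moved mostly upward. Of 13 tested, 5 rose, among them Icam1, Mmp9, Plau and Timp1, and 1 fell (Mmp2), with a median of 0.38. Plau, the urokinase plasminogen activator, went from 15.3 and 14.3 FPKM to 44.0 and 38.3 FPKM (1.44 ± 0.21, adjusted p = 0.0041). The leukocyte adhesion gene Icam1 was listed at 0 before TNF and at 1.65 and 3.72 FPKM after it (adjusted p = 0.0018). The related Vcam1 did not pass the test, at 30.7 and 23.3 FPKM before and 35.9 and 33.8 FPKM after (0.38 ± 0.31, adjusted p = 0.61). Mmp2, a gelatinase, went from 25.8 and 36.0 FPKM to 10.8 and 12.04 FPKM (-1.38 ± 0.14, adjusted p = 0.00038), but recovered fragments gave -0.26 (adjusted p = 0.16). Ptgs2, the inducible cyclooxygenase, missed the threshold with 82.5 and 32.1 FPKM before and 127 and 124 FPKM after (1.28 ± 0.32, adjusted p = 0.056), and passed it with recovered fragments (2.04, adjusted p = 2.2e-07).

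Id genes, Mt2, Angptl4 and Wdr92 were among the genes outside these groups that rose most and were above 0 in all 4 libraries, as was Gprc5a, whose treated libraries differed widely, at 221 and 85.2 FPKM (2.57 ± 0.39, adjusted p = 0.0056). Id1, Id2 and Id3 encode inhibitors of helix-loop-helix factors and are classic targets of BMP signalling, and of 14 genes of the TGF-beta, BMP, Wnt and Notch list 4 rose and 0 fell by limma, with a median of 0.86. At an unadjusted p under 0.05 it was 5 higher and 0 lower, and recovered fragments called 7 higher and 0 lower. Id1 (chr2:152736274-152737410) went from 7.68 and 5.29 FPKM to 69.8 and 56.1 FPKM at 1 h and 46.3 and 62.4 FPKM at 2 h (2.98 ± 0.29, adjusted p = 0.00032). Id3 went from 15.8 and 11.7 FPKM to 89.1 and 113 FPKM (2.84 ± 0.26, adjusted p = 0.00024), and Id2 and Skil, a SMAD repressor gene, rose by 2.40 ± 0.31 and 1.04 ± 0.14. The metallothionein gene Mt2, whose product binds zinc (chr8:94172618-94173567), went from 68.3 and 82.6 FPKM to 537 and 535 FPKM (2.83 ± 0.16, adjusted p = 4.8e-06). Angptl4, an inhibitor of lipoprotein lipase, went from 3.77 and 3.18 FPKM to 23.9 and 22.8 FPKM (2.59 ± 0.15, adjusted p = 5.7e-06). Wdr92 went from 38.2 and 31.2 FPKM to 200.01 and 219.98 FPKM (2.59 ± 0.09, adjusted p = 1.7e-07), and recovered fragments gave a smaller rise of 1.49.

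**Figure D3:**
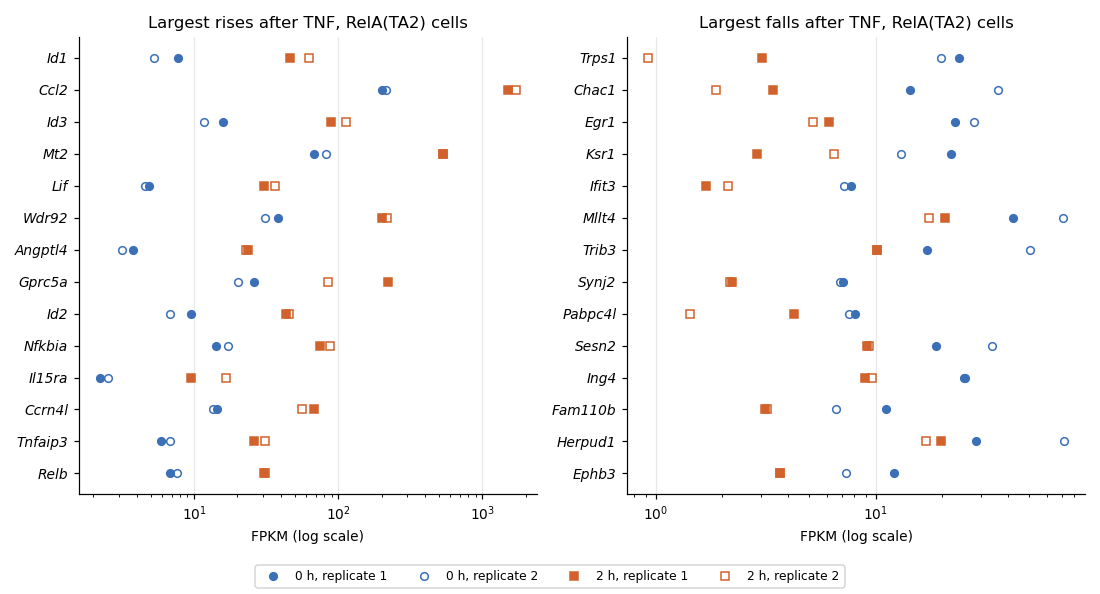
FPKM in the 2 untreated and the 2 treated RelA(TA2) libraries for genes among those with the largest rises and falls by FPKM. Only genes past the test on both measures and above 0 in all 4 libraries were ranked. The axis is a log axis, with 1 point per library (circles 0 h, squares 2 h). Ccl2 reached 1503 and 1717 FPKM, and Trps1 was at 3.04 and 0.924 FPKM after TNF.

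Immediate early genes moved mostly upward, and some of those that rose stood higher at 1 h than at 2 h. Of 28 tested, 6 rose (Atf3, Fos, Fosl2, Ier3, Junb and Nr4a2) and 1 fell (Egr1), with a median of 0.52. Before adjustment 11 were higher and 3 lower (p under 0.05), and recovered fragments called 15 higher and 3 lower. Ier3, a survival gene, was at 15.3 and 21.7 FPKM before, 69.9 and 78.9 FPKM at 1 h and 46.2 and 49.2 FPKM at 2 h (1.36 ± 0.19, adjusted p = 0.0037). Fos itself was listed at 0 before TNF, and stood at 5.43 and 3.17 FPKM at 1 h and at only 1.06 and 1.05 FPKM at 2 h. Fosl2, a Fos relative, was at 17.4 and 17.8 FPKM before and 41.8 and 47.5 FPKM at 2 h (1.32 ± 0.12, adjusted p = 0.00025). Egr1, a zinc finger factor induced by growth signals, was at 22.9 and 28.0 FPKM before, at 150.0 and 279 FPKM at 1 h, and at 6.13 and 5.20 FPKM at 2 h. Its 2 h level lay below the untreated one, with a change of -2.07 ± 0.27 (adjusted p = 0.0022). Of 15 genes of MAP kinase feedback 3 rose, all of them dual specificity phosphatases, and 0 fell. Before adjustment 8 were higher and 1 lower, and recovered fragments called 6 higher and 2 lower. Dusp5, which acts on ERK, went from 35.8 and 32.9 FPKM to 81.7 and 79.5 FPKM (1.22 ± 0.17, adjusted p = 0.0037), and Dusp10 and Dusp4 rose by 0.74 ± 0.11 and 0.47 ± 0.11.

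Interferon and antigen-processing genes moved in both directions. Of 23 tested, 2 rose and 2 fell, and the median was -0.10. Irf1, a transcription factor gene that NF-kB is known to induce, went from 5.77 and 5.84 FPKM to 21.6 and 28.9 FPKM (2.01 ± 0.19, adjusted p = 0.00025). Ifit3, an antiviral gene, went from 7.70 and 7.18 FPKM to 1.70 and 2.13 FPKM (-1.72 ± 0.23, adjusted p = 0.0025). Its neighbour Ifit2 fell from 16.6 and 17.8 FPKM to 10.3 and 10.1 FPKM (-0.72 ± 0.09, adjusted p = 0.002). Ifit1, next to both on chromosome 19, was listed at 0 before TNF and at 4.62 and 2.49 FPKM after it (adjusted p = 0.031).

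Smaller groups added few calls by FPKM and more by recovered fragments. Of 15 survival genes 1 rose, Gadd45b, and of 23 genes of TNF receptor signalling and co-activators 2 rose (Sharpin and Cited2) and 1 fell. That gene was Tnfrsf1a, the main TNF receptor, at 55.0 and 67.7 FPKM before and 44.1 and 42.4 FPKM after (-0.49 ± 0.09, adjusted p = 0.017). Of the hypoxia and glycolysis list 2 of 16 rose, Hk2 (1.67 ± 0.14) and Vegfa (0.74 ± 0.15). Of 14 circadian clock genes Arntl and Bhlhe40 rose (0.60 ± 0.09 and 1.30 ± 0.30) and Tef fell (-0.47 ± 0.10). The other pairs of rises were Hmox1 and Bag3 of 14 heat shock and redox genes, Tpm1 and Thbs1 of 14 YAP and SRF targets, Lox and Loxl2 of 21 matrix genes, and Brd2 and Srsf6 of 20 RNA polymerase II and splicing regulators. Recovered fragments called 11 of the YAP and SRF targets higher and 0 lower, 8 and 1 of the hypoxia and glycolysis list, 7 and 0 of the RNA polymerase II and splicing regulators and 6 and 1 of the heat shock and redox genes. They called 4 higher and 3 lower of the matrix genes, 4 and 1 of the clock genes, 4 and 2 of the survival genes, and 4 and 6 of TNF receptor signalling and co-activators. In each of these lists except heat shock and redox, leaving out at least 1 of the 4 libraries lowered the count of FPKM calls. Leaving out the untreated library 1 instead raised it for matrix genes, TNF receptor signalling and co-activators, and RNA polymerase II and splicing regulators. Of 14 genes of innate defence none passed by limma, but before adjustment 7 had p under 0.05 and were higher, 0 lower, and recovered fragments called 8 higher and 0 lower. In 13 lists with 168 tested genes, innate defence included, none passed the limma test, with 14 raised and 4 lowered before adjustment (p under 0.05), and recovered fragments called 17 higher and 4 lower. Over these lists together, the share that was higher is near the 6.56% and 9.09% of all genes on the same criteria. Innate defence alone supplied 7 of the 14 and 8 of the 17, so its own share lies well above those of all genes. The share that was lower over these lists is under the 10.7% and 19.2%. Among the 13 lists were those of the cell cycle, cholesterol, ribosomal proteins, oxidative phosphorylation and mRNA decay. The untreated libraries differed for the cholesterol list, whose median was 0.47 without the untreated library 1 and -0.16 without the untreated library 2.

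**Figure D4:**
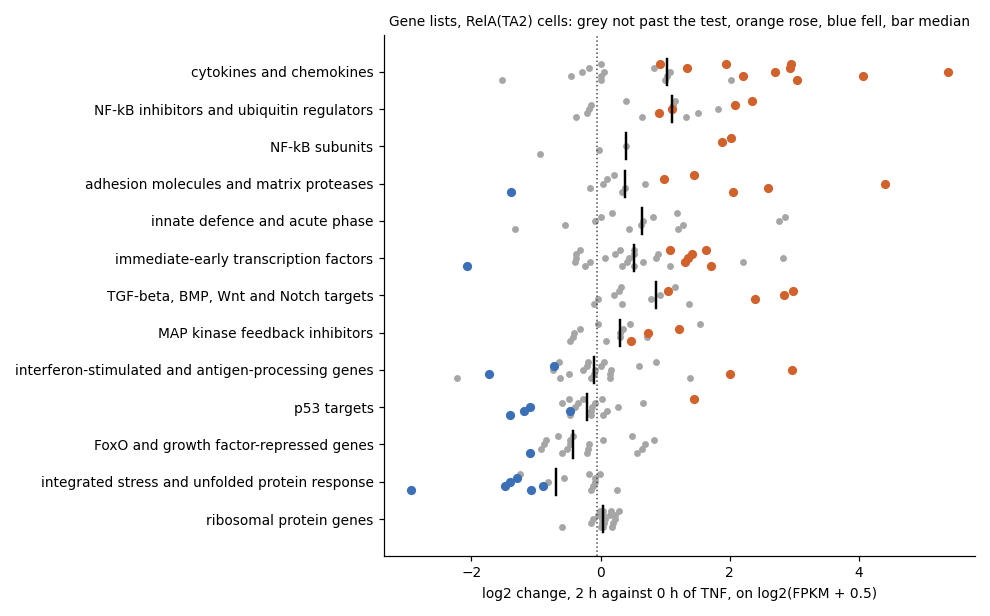
Change from 0 h to 2 h on the log2(FPKM + 0.5) scale (horizontal axis) for each tested gene of 13 lists in RelA(TA2) cells, with 1 point per gene, orange where it rose, blue where it fell and grey where it did not pass, and a bar at each list's median. The medians run from 1.11 for NF-kB inhibitors to -0.69 for the integrated stress response, and the dotted line marks the median of all genes, -0.053.

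The integrated stress response list held the most falls by FPKM of the lists examined. It collects targets of ATF4, the factor that cells make when amino acids run short or misfolded proteins build up, and genes of the unfolded protein response. Of 16 tested, 6 fell (Atf4, Chac1, Herpud1, Ppp1r15a, Sesn2 and Trib3) and 0 rose, 15 were lower at 2 h, and the median was -0.69. At an unadjusted p under 0.05, 8 were lower and 0 higher. Recovered fragments called 9 lower and 1 higher, the latter Hspa5, the main chaperone of the endoplasmic reticulum. Atf4 itself (chr15:80255184-80257541) went from 359 and 429.7 FPKM to 233 and 191 FPKM (-0.89 ± 0.14, adjusted p = 0.0057). Chac1, a glutathione-degrading enzyme, went from 14.4 and 36.0 FPKM to 3.40 and 1.88 FPKM (-2.94 ± 0.47, adjusted p = 0.0068). Trib3, a pseudokinase that binds ATF4, went from 17.1 and 50.1 FPKM to 10.2 FPKM in both libraries (-1.49 ± 0.34, adjusted p = 0.041).

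The untreated libraries differed for these genes. Herpud1, which takes part in the degradation of misfolded proteins, was at 28.7 and 72.0 FPKM before and 19.8 and 16.9 FPKM after (-1.29 ± 0.30, adjusted p = 0.043). In Trib3, Herpud1, Chac1 and Sesn2 the untreated library 2 stood above library 1, and both treated libraries stood below both. Without the untreated library 1 the list held 6 falls, without library 2 it was 4 with a list median of -0.38, without the treated library 1 it was 2, and without the treated library 2 it was 1. At 1 h Trib3, Herpud1 and Sesn2 stood at 43.2 and 43.0, at 64.9 and 63.6, and at 38.8 and 41.6 FPKM, and Chac1 at 22.9 and 21.5 FPKM, all within or above the untreated range. Ppp1r15a, at 53.1 and 58.6 FPKM, stood above its untreated 21.5 and 35.3 FPKM, while Atf4, at 241 and 243 FPKM, was already below its untreated level.

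An ATF4 composite element was searched for in the same promoter windows, as TGATGNAA on both strands. It stood in 210 of the 9626 windows (2.18%), in 7 of the 159 genes that rose and in 6 of the 192 that fell. Of the 16 genes of the stress list 4 held it, Asns, Chac1, Herpud1 and Trib3. The matches of 2 of these genes are shown with 10 bases on each side and the match in capitals. Both lie on the strand opposite to the spelling above.
Chac1, chr2:119351039-119351066 (plus strand): ttccctgccgTTGCATCActcctgccag
Herpud1, chr8:94386307-94386334 (plus strand): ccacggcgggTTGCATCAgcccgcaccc

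Asns, the asparagine synthetase gene, held the element and did not pass the test, with 139.7 and 182 FPKM before and 151 FPKM in both libraries after (-0.08 ± 0.29, adjusted p = 0.96).

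Genes of p53 and FoxO, transcription factors linked to arrest and to nutrient shortage, also included falls. Of 20 tested p53 targets 4 fell (Ccng2, Sesn2, Trp53inp1 and Zmat3) and 1 rose, and recovered fragments called 8 lower and 3 higher. Sesn2 is counted among the falls of the integrated stress response list as well. Ccng2, an atypical cyclin that restrains the cell cycle, went from 10.6 and 9.93 FPKM to 4.75 and 4.32 FPKM (-1.10 ± 0.11, adjusted p = 0.00034). Trp53inp1, a p53-induced gene of autophagy, went from 44.9 and 39.5 FPKM to 20.7 and 16.2 FPKM (-1.18 ± 0.17, adjusted p = 0.0042). Fas, the death receptor gene, rose instead, from 4.59 and 5.77 FPKM to 16.0 and 13.9 FPKM (1.45 ± 0.16, adjusted p = 0.00075). Of 19 FoxO and growth factor-repressed genes 1 fell by limma, again Ccng2, with a median of -0.43, while recovered fragments called 13 lower and 1 higher. Irs1, an adaptor of the insulin receptor and a gene chosen here after its values were seen, showed the gap, at 8.12 and 7.04 FPKM before and 3.64 and 3.87 FPKM after (-0.92 ± 0.37, adjusted p = 0.23), with -1.02 by recovered fragments (adjusted p = 6.5e-06).

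Zinc finger genes named Zfp were the widest list, and 5 of 318 fell while 0 rose by limma, a share of falls near that of all genes (1.89%). At an unadjusted p under 0.05, 30 were lower and 9 higher, and recovered fragments called 54 lower and 13 higher. The shares of these genes that were lower are near or under those of all genes on the same criteria (10.7% and 19.2%), and the shares that were higher are under 6.56% and 9.09%. The 5 falls became 1 to 3 without the untreated library 2 or either treated library. Zfp395 went from 8.59 and 9.38 FPKM to 4.78 and 5.32 FPKM (-0.77 ± 0.11, adjusted p = 0.0044). Zfp385a went from 22.1 and 30.7 FPKM to 14.6 and 15.3 FPKM (-0.78 ± 0.14, adjusted p = 0.014).

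Among the largest falls of genes above 0 in all 4 libraries were some of genes in no list. Trps1, a GATA-type repressor (chr15:50654759-50890041), went from 24.0 and 19.7 FPKM to 3.04 and 0.924 FPKM (-3.31 ± 0.75, adjusted p = 0.039). It was at 5.54 and 21.4 FPKM at 1 h, so that the libraries of that time differed widely. Ephb3, an ephrin receptor, went from 12.1 and 7.36 FPKM to 3.69 and 3.66 FPKM (-1.25 ± 0.19, adjusted p = 0.0057). For Ksr1 and Mllt4 the FPKM changes were -1.85 and -1.50 on the log2 scale, and those of recovered fragments were -0.49 and -0.31. Synj2 and Ing4 were each joined to a neighbouring gene in the assembly, and their FPKM changes of -1.47 and -1.40 were -0.72 and -0.69 with recovered fragments.

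**Figure D5:**
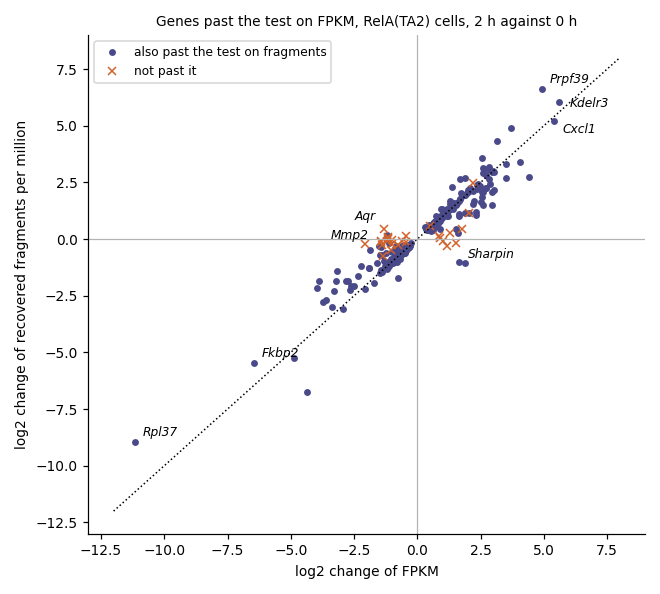
Change from 0 h to 2 h in RelA(TA2) cells on the log2 scale for the genes called by FPKM, with the FPKM change on the horizontal axis and the change in recovered fragments on the vertical axis, 1 point per gene. Genes past the test on both measures are dots and the others crosses. Most lie near the dotted diagonal, while Sharpin, which rose by FPKM, and Aqr and Mmp2, which fell, lie near 0 on the vertical axis, at -0.17, 0.02 and -0.26.

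Both measures come from the same files, and for a few genes they part ways. Aqr, a splicing helicase gene, was at 37.4 and 41.6 FPKM before and 17.8 and 16.9 FPKM after (-1.16 ± 0.08, adjusted p = 2.2e-05), yet its recovered fragments changed by 0.02. Sharpin, a subunit of the linear ubiquitin ligase, rose from 12.6 and 14.4 FPKM to 39.1 and 40.8 FPKM (1.53 ± 0.24, adjusted p = 0.0058), and its recovered fragments changed by -0.17 (adjusted p = 0.15). For neither gene can a change in total expression be read from both measures.

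Some calls rest on genes listed at 0. Of the genes that rose 35 were listed at 0 in both untreated libraries, and of those that fell 21 were listed at 0 in both treated ones. Rpl37, a ribosomal protein gene, was at 1238 and 1023 FPKM before, 409 and 396 FPKM at 1 h and listed at 0 at 2 h (adjusted p = 9.7e-06), where another assembled transcript, not counted as a match, covered 38.6% of its exons in both libraries. Fkbp2 was at 39.7 and 47.8 FPKM and then listed at 0, with another transcript over 10.5% and 0.602% of its exons. Prpf39, a splicing factor gene, was listed at 0 in both untreated libraries and at 14.4 and 14.8 FPKM at 2 h, and Kdelr3, which encodes a receptor that returns proteins to the endoplasmic reticulum, went from 0 in both to 24.2 and 23.4 FPKM. A listed 0 can be a transcript that was not assembled as a RefSeq match, so none of these is given a fold change. The protease gene Mmp9 was listed at 0 before and at 6.93 and 14.7 FPKM after (adjusted p = 0.00026).

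The other lines, whose libraries are separate, mostly moved the same genes the same way. Of the 215 genes that rose in RelA(TA2) cells, 196 were higher at 2 h in RelA(wt) cells, 91.2% against 41.0% of all genes, and 94 passed the test there. Their median change was 0.64 in RelA(wt) and 0.49 in RelA(Ser276Ala) cells. In RelA(Ser276Ala) cells 182 were higher, 84.7% against 42.8% of all genes, and 60 passed. Of the 231 genes that fell, 205 were lower in RelA(wt) cells, 88.7% against 56.5% of all genes, and 204 in RelA(Ser276Ala) cells, 88.3% against 54.8%. The median changes of these falls were -0.29 and -0.24, and 20 and 13 of them passed the test. These genes were selected by their change in RelA(TA2) cells, so smaller medians in lines that did not select them show no difference between lines. In each line's own comparison, 156 genes rose and 54 fell in RelA(wt) cells (1.27% and 0.441%), and 84 rose and 36 fell in RelA(Ser276Ala) cells (0.686% and 0.294%).

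The difference between lines was tested directly, as the change in RelA(TA2) cells minus that in another line. Against RelA(wt), 26 of the genes tested passed (0.212%), 8 with the higher change in RelA(TA2) cells (0.0653%) and 18 with the lower (0.147%). Against RelA(Ser276Ala), 20 passed (0.163%), 11 higher (0.0898%) and 9 lower (0.0735%). Among the genes that rose, 6 differed from RelA(wt) and 9 from RelA(Ser276Ala), and among those that fell, 11 and 6 did. A difference that missed the threshold does not show that the lines responded alike, since the errors were wide with 2 libraries per group. For Nfkbia the difference from RelA(wt) was 1.59 ± 0.45 (adjusted p = 0.4), and for Chac1 it was -2.37 ± 0.66 (adjusted p = 0.38).

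Mt2 rose more in RelA(TA2) cells than in both other lines. It went from 80.8 and 111 FPKM to 221 and 252 FPKM in RelA(wt) cells, and from 142 and 123 FPKM to 292 and 272 FPKM in RelA(Ser276Ala) cells. The change in RelA(TA2) cells was higher by 1.51 ± 0.23 (adjusted p = 0.027) and by 1.74 ± 0.23 (adjusted p = 0.012), but recovered fragments put the first difference at 0.74 (adjusted p = 0.24). Angptl4, from 6.04 and 6.36 FPKM to 13.2 and 16.1 FPKM in RelA(wt) cells, had a change 1.41 ± 0.21 higher in RelA(TA2) cells (adjusted p = 0.029), and 1.68 higher by recovered fragments (adjusted p = 0.012).

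Tnfsf9 and Ccl20 responded less than they did in RelA(wt) cells. Tnfsf9 rose in RelA(wt) cells from 8.95 and 8.68 FPKM to 19.9 and 22.8 FPKM, and the change in RelA(TA2) cells minus that in RelA(wt) cells was -1.68 ± 0.20 on the log2 scale (adjusted p = 0.0061). Recovered fragments gave -1.63 (adjusted p = 0.011). Ccl20 reached 25.1 and 28.5 FPKM in RelA(wt) cells from a listed 0, against 8.18 and 7.55 FPKM in RelA(TA2) cells (adjusted p = 0.041 for the difference in change). In RelA(Ser276Ala) cells it was listed at 0 at 0 h and 2 h (adjusted p = 5.8e-05 for the difference). The order of the 3 lines for Ccl20 at 2 h was RelA(wt), RelA(TA2) and RelA(Ser276Ala), with no overlap between libraries.

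Wdr92, Hk2 and Ppap2b set RelA(TA2) apart from RelA(Ser276Ala). Wdr92 was at 22.0 and 21.5 FPKM before and 26.6 and 27.9 FPKM after in RelA(Ser276Ala) cells, and the change in RelA(TA2) cells was higher by 2.27 ± 0.13 (adjusted p = 2.3e-05). In RelA(wt) cells Wdr92 reached 225 and 227 FPKM, and that change differed from the one in RelA(TA2) cells by -0.14 ± 0.13 (adjusted p = 0.85). Hk2, a hexokinase gene, went from 10.4 and 10.3 FPKM to 15.6 and 12.6 FPKM in RelA(Ser276Ala) cells, and from 7.16 and 8.04 to 23.5 and 27.2 FPKM in RelA(TA2) cells, a change higher by 1.25 ± 0.20 (adjusted p = 0.04). Ppap2b, a lipid phosphate phosphatase gene, went from 6.14 and 6.29 FPKM to 10.6 and 10.02 FPKM there, against 5.22 and 4.85 to 18.2 and 18.8 FPKM in RelA(TA2) cells, a difference of 1.09 ± 0.13 (adjusted p = 0.0063).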

How the data were processed

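RNA from 18 fibroblast cultures was sequenced as poly(A) libraries on an Illumina instrument. Per the submitters' processing notes, alignment was to mm10 by TopHat2 (2.0.5) over Bowtie2 (2.0.0.7), and Cufflinks (2.0.2) assembled every library by itself. The authors deposited FPKM with its confidence limits for each assembled transcript. Differential tests by the authors were not used here. Transcripts placed on RefSeq exons were summed per gene. Genes of at least 1 FPKM in at least 2 of 18 libraries were fitted with limma 3.58.1 (trend) on log2(FPKM + 0.5), 9 group means and 9 residual degrees of freedom, with Benjamini-Hochberg adjustment over all genes and a threshold of 0.05. Fragments were recovered as FPKM times a factor for assembled length. The factor came from the confidence limits of genes with a single assembled transcript. Of the fragment numbers below 500 in those genes, 88.9 to 90.2% came out whole within 0.02. Sharing of reads between paralogs, and between overlapping genes, can shift FPKM.

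Genes are named by size of change among those that passed in both measures (15 each way above 0 in all 4 libraries, 5 each way listed at 0 in one group), by the largest differences between lines, by up to 4 members per list, and from a set of followed genes. Other members that passed are named without being part of that rule, and a few items that the rule gives are not reported here. The members and lists were chosen with earlier results of these data known. The fits were tested on simulated data with known changes. Alternatives included scalings, filters, pseudocounts, a replicate block and leaving out each library. Depth and library values stand in the text, and mapped fragments limit precision as counting error only.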

Additional observations from a re-analysis of the deposited data

Results flagged for a closer look

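Genes are given here because their change from 0 h to 2 h in RelA(TA2) cells differed from that in another line by the limma test of the difference (Benjamini-Hochberg adjusted p under 0.05), with values on the log2 scale as RelA(TA2) minus the other line. Rela mRNA was at a higher level in RelA(TA2) cells than in both other lines. By the paper's account, RelA protein was scarcest in the RelA(Ser276Ala) line. The part of either in these differences was not tested.

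Against RelA(wt) cells, Mt2 differed by 1.51, Angptl4 by 1.41, Tnfsf9 by -1.68 and Mmp2 by -1.24. For Mmp2, recovered fragments put the difference at only -0.12 (limma adjusted p = 0.79). Differences that rest on a listed 0 in RelA(TA2) cells were -1.71 for Ccl20, 5.06 for Prpf39, 5.05 for Mmp9, -11.64 for Rpl37 and -6.06 for Fkbp2, and their size depends on the amount added before the logarithm. For Mmp9, recovered fragments put the difference at 1.01 (limma adjusted p = 0.35). They also gave a rise of 1.71 in RelA(wt) cells, where FPKM gave -0.64. Some differences came from a change in the RelA(wt) libraries. Sucla2 (1.18) stayed at 30.4 to 32.8 FPKM in RelA(TA2) cells and went from 73.8 and 67.6 to 32.3 and 30.1 FPKM in RelA(wt) cells (recovered fragments differed by 0.03), Txndc12 (1.66) went from 77.6 and 70.4 to 22.6 and 20.5 FPKM there, Ccdc55 (-1.62) from 17.6 and 16.3 to 49.6 and 53.5 FPKM, and Lin28b (2.88) from 2.76 and 3.98 FPKM to a listed 0. Aqr (-1.06) fell in RelA(TA2) cells only by FPKM, and its recovered fragments differed by 0.12.

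Against RelA(Ser276Ala) cells, Mt2 differed by 1.74, Wdr92 by 2.27, Hk2 by 1.25 and Ppap2b by 1.09. Differences that rest on a listed 0 were 4.06 for Ccl20, 10.66 for Kdelr3, 4.80 for Prpf39, -11.84 for Rpl37 and -6.63 for Fkbp2. Kdelr3 went from 15.8 and 16.6 FPKM to a listed 0 in RelA(Ser276Ala) cells and the other way in RelA(TA2) cells. Ogdh (1.01) went from 59.96 and 56.6 to 26.8 and 27.3 FPKM in RelA(Ser276Ala) cells and Prpf6 (-1.09) from 36.6 and 39.9 to 68.6 and 68.5 FPKM, while neither passed the test in RelA(TA2) cells. Aqr differed by -1.13.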

How the results depend on the processing

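Of 1560 values computed for 87 named genes at 2 h against 0 h, 1333 kept their direction and side of the threshold, 216 lost significance, 6 gained it and 5 changed sign. The counts of 215 higher and 231 lower genes became 152 lower with median-of-ratios scaling, 83 and 41 with only RelA(TA2) libraries in the fit, 142 and 97 with the replicate number as a block, and 1101 and 2325 with recovered fragments (1146 and 2340 with the block, 1595 and 1554 with median-of-ratios scaling). Leaving out 1 library gave 152 to 317 higher and 98 to 535 lower genes by FPKM, and 683, 710, 730 or 1605 and 1274, 1418, 1503 or 2751 by fragments. The fragment alternatives with a block, a scaling or a library left out were added after seeing the data. The sources used here do not say whether a replicate number pairs the samples. Deviations of same-numbered RelA(TA2) libraries correlated by 0.007 to 0.046 for FPKM and -0.047 to 0.068 for fragments. Such values over all genes show no broad shared shift, but cannot tell whether the libraries were paired.

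For the difference from RelA(wt) (8 higher, 18 lower), 0.1 FPKM added gave 15 higher, a filter of 5 FPKM 10 lower, no variance trend 20 and 34, the block 4 and 4, only both lines in the fit 31 higher, the highest transcript alone 9 lower, fragments 31 lower (4 and 7 with the block), and leaving out 1 library 12 to 65 and 21 to 105. For the difference from RelA(Ser276Ala) (11 and 9), the same settings gave 21 higher for 0.1 FPKM, 26 and 14 for no trend, 3 higher for the block, 27 and 14 for both lines alone, 5 lower for the highest transcript, 67 and 51 for fragments (44 and 35 with the block, 67 and 48 with median-of-ratios scaling), and 25 to 63 and 15 to 76 without 1 library. The cause was not tested.

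Rela changed sign to 0.05 with median-of-ratios scaling, 0.023 with fragments and 0.044 without the untreated library 1 (the range without 1 library was -0.082 to 0.044). With fragments Sharpin was -0.17, Aqr 0.015 (0.12 against RelA(wt), 0.0065 against RelA(Ser276Ala)), Txndc12 -0.074, Ccdc55 0.24, Ogdh -0.091 and Prpf6 0.037. With 2 libraries per group, small changes could not be detected.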

Other observations

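Growth factor genes outside the lists were among those that rose in RelA(TA2) cells. They were chosen after their values were seen, so they are described without a count or a test of the group. The epidermal growth factor receptor ligands Hbegf, Ereg and Areg changed by 1.63 ± 0.25, 1.56 ± 0.16 and 1.25 ± 0.14 on the log2 scale (SE, n = 2 libraries per group, limma with Benjamini-Hochberg adjustment, adjusted p = 0.0057, 0.00039 and 0.00095). Ereg was at 10.2 and 8.56 FPKM before TNF, 59.7 and 65.8 FPKM at 1 h and 28.3 and 28.8 FPKM at 2 h. The placental growth factor gene Pgf went from 46.8 and 69.7 FPKM to 118 and 144 FPKM (1.18 ± 0.21, adjusted p = 0.014).

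Single genes that fell are given next, again chosen after their values were seen and with no statement about the groups they belong to. Of the list of 15 survival and cell death regulators 1 rose and 0 fell by FPKM, and recovered fragments called 4 higher and 2 lower. Gabarapl1, an ATG8 family gene, went from 75.0 and 87.0 FPKM to 55.9 and 51.0 FPKM (-0.59 ± 0.09, adjusted p = 0.0056), and its relative Map1lc3b from 132 and 153 FPKM to 112 and 113 FPKM (-0.33 ± 0.08, adjusted p = 0.04). Apaf1 and Casp9, which form the apoptosome, changed by -0.46 ± 0.09 and -0.61 ± 0.13 (adjusted p = 0.021 and 0.029). Bmf, a pro-apoptotic member of the BCL2 family, was at 4.66 and 4.63 FPKM before TNF and listed at 0 at 1 h and 2 h (adjusted p = 0.0022). The interferon gamma receptor genes Ifngr1 and Ifngr2 moved the other way, by 0.48 ± 0.11 and 0.91 ± 0.11 (adjusted p = 0.04 and 0.0011).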
